A study of Mus musculus with 18 samples.

Results

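The small leucine-rich proteoglycans were followed in laser-dissected carotid tissue of the mouse over 28 days after wire injury. The members were taken by symbol from the count table: Dcn, Bgn, Lum, Ogn, Fmod, Prelp, Aspn, Omd and Podn, 9 of its 35655 genes. The rule itself uses no measured value, although the family was picked with earlier results of these data known. RNA 3′ ends were counted by MACE-seq in 18 libraries. There were 4 libraries before injury (day 0), and 4, 3, 4 and 3 libraries on days 7, 14, 21 and 28. All libraries came from WT C57/BL6 mice, and no group carried a transgene or a drug. The label of day 0 is pre-injury, and the other days carry the label injury. Surgery was performed on the left carotid of male mice at 11 weeks of age, and thrombosed vessels were removed by the study. The right carotid served as control there, and whether the day 0 vessels came from animals that were later injured is not stated. In 3 cases the labels give a day 0 and a day 21 library the same mouse number. Up to 70 sections per sample, cut to hold the outer elastic lamina and the neointima, were collected. The study calls the samples pooled neointima samples, those of day 0 included. It also describes neointima as formed after injury, and what was cut from day 0 vessels is not described apart. Whether layers within a section were separated, and how much adventitia was cut along, is not stated.

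Small leucine-rich proteoglycans are secreted proteins built around leucine-rich repeats, most of which carry chondroitin, dermatan or keratan sulphate chains. They bind collagen fibrils, set fibril diameter and spacing, and hold growth factors such as TGF-beta in the matrix. In the artery they are made by smooth muscle cells and by adventitial fibroblasts, and biglycan and decorin have long been studied for their binding of lipoproteins and TGF-beta in the vessel wall. The family is divided by sequence into class I (biglycan, decorin, asporin), class II (fibromodulin, lumican, PRELP, osteomodulin), class III (osteoglycin) and a class with podocan.

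The genes lie in 3 clusters and at 2 single positions on GRCm39 (GENCODE). Dcn (chromosome 10, 97315275 to 97358155) and Lum (chromosome 10, 97400990 to 97408577) are neighbours on the plus strand, 42834 bases apart. Ecm2, Aspn (chromosome 13, 49697609 to 49721057), Omd (chromosome 13, 49735938 to 49746298) and Ogn (chromosome 13, 49761349 to 49780412) follow each other on the plus strand over 122177 bases, all within the span of Cenpp on the minus strand. Exons of Aspn and Ogn overlap exons of Cenpp, and whether counting used the strand is not given in the sources used here. Cenpp itself held few counts, as given with Ogn. Prelp (chromosome 1, 133837335 to 133857971, minus strand) and Fmod (chromosome 1, 133964992 to 133976015, plus strand) are 107020 bases apart, and an exon of Prelp overlaps Gm15851 on the opposite strand. Bgn lies on chromosome X (72527208 to 72539541, plus strand) and Podn on chromosome 4 (107871988 to 107889534, minus strand). All 9 are protein-coding genes.

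The promoter windows of 4 members are shown because these genes were lower together on day 7, as described further on. They come from RefSeq on the older build GRCm38.p6 (so their positions do not match those above), run from 250 bases before to 50 after the start of the gene, and are printed 5′ to 3′ in the direction of the gene. Entries were found for 7 of the 9 members, not for Dcn and Lum. Capitals mark TATAAA, and CAGAC, the core bound by SMAD proteins, on either strand, so that TTTATA and GTCTG are their reverse complements. The windows are chr13:49607765-49608064 (plus strand) for Ogn, chr13:49582212-49582511 (plus strand) for Omd, chr1:133921352-133921651 (minus strand) for Prelp and chrX:73483351-73483650 (plus strand) for Bgn.
Ogn: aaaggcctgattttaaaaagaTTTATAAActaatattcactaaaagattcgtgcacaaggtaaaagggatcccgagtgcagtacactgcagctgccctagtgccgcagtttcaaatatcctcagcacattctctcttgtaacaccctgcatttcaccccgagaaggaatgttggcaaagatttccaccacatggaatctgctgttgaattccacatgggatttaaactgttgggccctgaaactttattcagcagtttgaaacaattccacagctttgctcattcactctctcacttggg
Omd: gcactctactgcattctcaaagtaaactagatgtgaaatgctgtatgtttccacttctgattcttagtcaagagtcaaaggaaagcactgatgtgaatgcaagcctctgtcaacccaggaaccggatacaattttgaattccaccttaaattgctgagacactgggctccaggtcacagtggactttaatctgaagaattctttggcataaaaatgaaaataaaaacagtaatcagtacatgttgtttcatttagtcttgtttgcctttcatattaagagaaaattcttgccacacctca
Prelp: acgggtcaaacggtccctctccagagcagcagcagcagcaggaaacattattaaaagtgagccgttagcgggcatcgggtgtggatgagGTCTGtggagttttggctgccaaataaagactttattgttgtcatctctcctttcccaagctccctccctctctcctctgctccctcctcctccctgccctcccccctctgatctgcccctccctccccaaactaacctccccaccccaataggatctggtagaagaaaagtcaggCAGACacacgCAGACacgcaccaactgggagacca
Bgn: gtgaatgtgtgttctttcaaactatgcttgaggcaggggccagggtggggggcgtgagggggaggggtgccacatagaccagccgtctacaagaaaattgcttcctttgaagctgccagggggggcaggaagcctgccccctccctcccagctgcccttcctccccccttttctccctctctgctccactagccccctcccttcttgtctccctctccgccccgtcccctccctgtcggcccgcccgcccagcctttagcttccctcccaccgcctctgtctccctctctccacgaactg

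Ogn held TATAAA on both strands, overlapping each other, 229 and 227 bases before the start. Prelp held CAGAC 161 bases before the start and at bases 16 and 26 counted from it. The windows of Omd and Bgn held neither. Also searched on both strands were the CArG box, which serum response factor binds, and TGANTCA, the AP-1 site, and neither was found in any of the 7 members' windows. Of 32851 mouse promoter windows of the same length, 13.6% held TATAAA, 49.6% CAGAC, 1.63% the CArG box and 7.81% TGANTCA. The 4 genes therefore shared none of these motifs, and the matches describe letters only. GC content was 42.3% for Ogn, 37.7% for Omd, 55.3% for Prelp and 63.7% for Bgn, against a median of 52.7% over all promoters.

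The libraries held 440675 to 878310 counts (median 659166). Values are given as CPM (counts scaled to a fixed normalised library total), and since counts come from transcript 3′ ends they were not divided by length. The quasi-likelihood test of edgeR was run on 10312 genes, all 9 members among them, and a call means an adjusted p (Benjamini-Hochberg) under 0.05. Nothing says that replicates of a day were prepared separately beyond their mouse numbers, so the p-values measure the spread between these samples. The tissue changed in makeup over the same days. Summed CPM of 11 contractile smooth muscle markers ranged over 35164 to 40217 before injury and 1729 to 7478 on day 7, and all 10 markers tested were lower on day 7. The sum of 12 macrophage markers lay within 124 to 576 CPM before injury and within 5148 to 7486 CPM on day 7, with all 12 higher. The sum of 14 fibroblast markers lay within 3370.0 to 4434 CPM and then 1459 to 2336 CPM, with 9 lower, 1 higher (Ly6a) and 4 not called, the fibroblast marker Pdgfra among these. In such bulk tissue, fewer cells of a type and less RNA per cell cannot be told apart. On day 21 the sums ran over 9017 to 23087 for smooth muscle, with 7 of 10 markers lower, over 2043 to 3655 for macrophages, with all 12 higher, and over 2073 to 3402 for fibroblasts, with 5 lower and 2 higher. Also on day 21, 4 of 6 chondrocyte markers were higher, and the sum of 6 adipocyte markers reached 4.65 to 149.6, against 0 to 1.31 before injury, with Cfd, the only one tested, called higher. Of all genes tested, 11.3% were higher and 8.53% lower on day 7, and 5.92% higher and 2.93% lower on day 21. By day 28 smooth muscle markers summed to 21583 to 30248, macrophage markers to 885 to 1208 and fibroblast markers to 2376 to 2884. No day 28 library lay within the day 0 range of any of these sums. The part of these shifts in the members' results was not tested.

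**Figure D1:**
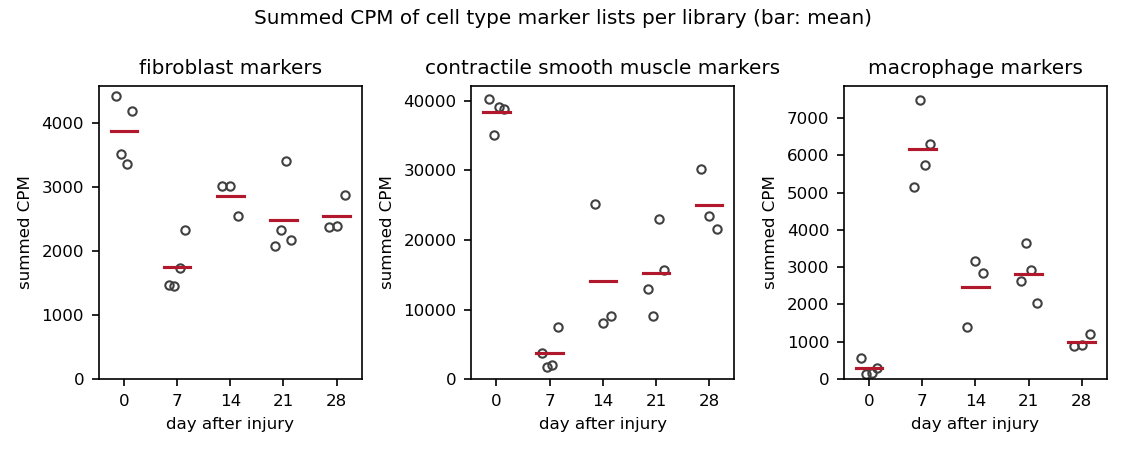
Summed CPM of the fibroblast, contractile smooth muscle and macrophage marker lists (vertical axes, linear from 0) against the day after injury. Circles are libraries and bars are means. The smooth muscle sum was lowest and the macrophage sum highest on day 7, in every library of that day.

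Ogn, Omd, Prelp and Bgn fell on day 7, and Lum rose. These 4 of 9 lower members stand beside 8.53% of all genes tested. The 1 of 9 higher stands beside 11.3%, and its share is near that background. On day 14, 2 of 9 were higher (Lum, Fmod; 4.8% of all genes) and 1 was lower (Ogn; 1.42% of all genes). On day 21, 3 of 9 were higher (Lum, Fmod, Podn; 5.92%) and none was lower, where 2.93% of all genes were. On day 28, Lum alone was called, 1 of 9 higher beside 0.97% of all genes, and 0 of 9 were lower beside 0.369%. DESeq2 also called 0 members lower on days 21 and 28, and at an unadjusted p under 0.05 edgeR had 1 lower on day 21 (Ogn) and 0 on day 28. The median log2 fold change of the 9 members was -0.69, 0.78, 0.18 and -0.05 over the 4 days in order, against 0.07, 0.05, 0.07 and -0.01 over all genes tested. With the shared mouse numbers as a block, 3 members were called on day 7, 1 on day 14 and 0 on day 28. Days 7, 14 and 28 hold no shared number, so there the day 0 level rested largely on replicate 1, which has no block term. Over all 10312 genes this fit called 609 higher and 438 lower on day 7, 182 and 17 on day 14, and 3 and 0 on day 28. The main fit called 1161 and 880, 495 and 146, and 100 and 38 genes in the same order. The count of members on day 14 was also 1 without day 14 replicate 2, where 214 of 10898 genes were higher and 19 lower. On day 28 the count of members was 0 without day 0 replicate 2 or without day 0 replicate 3. In these fits 58 and 49 of 10182 genes were higher, and 17 and 14 lower.

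**Figure D2:**
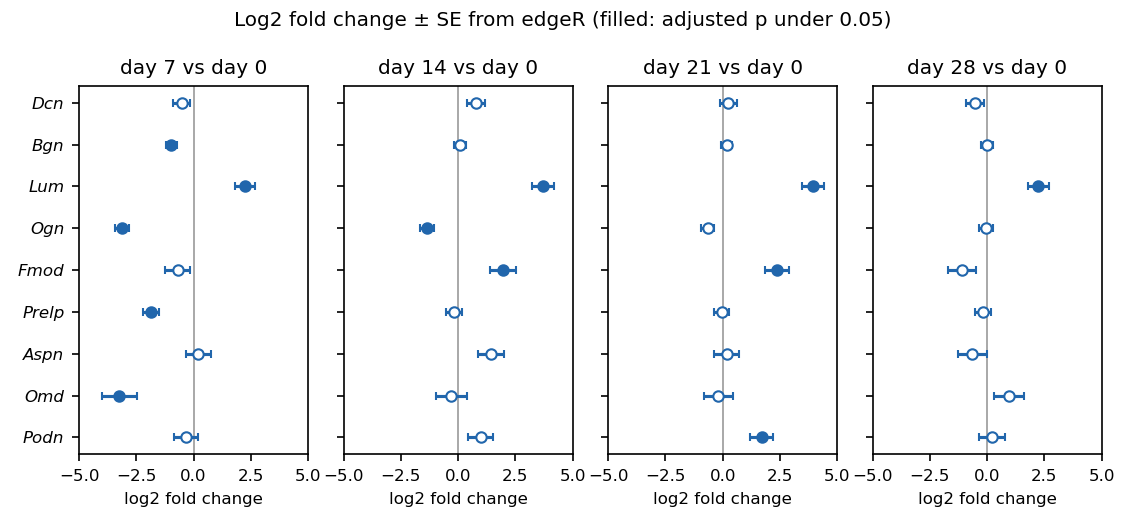
Log2 fold change of each member against day 0 (horizontal axis) on days 7, 14, 21 and 28, with bars for the standard error from edgeR. Filled points had an adjusted p under 0.05. Lum lay to the right of 0 on each day and Ogn moved from -3.12 on day 7 to -0.05 on day 28.

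Class I: biglycan, decorin and asporin. Bgn encodes biglycan, which carries a pair of chondroitin or dermatan sulphate chains, and was the most abundant member in each library. It stood at 9664, 8815, 8421 and 7487 CPM in the day 0 libraries and at 4626, 3448, 2125 and 7413 CPM on day 7. All day 7 libraries lay below all day 0 libraries, replicate 4 by little. Bgn had a log2 fold change of -0.96 (SE 0.25, adjusted p = 0.00649), or 1.95-fold lower. With the mouse number as a block its adjusted p was 0.0736.

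Bgn was back at 10669, 8511 and 8477 CPM on day 14, at 9972, 8609.5, 10803 and 9663 CPM on day 21 and at 9715, 7080.0 and 9158 CPM on day 28. These libraries overlapped those of day 0 on each day, and none of the differences from day 0 was called (adjusted p = 0.92, 0.738 and 0.996). Against day 7, Bgn was higher by 1.07 (adjusted p = 0.0336) on the log2 scale on day 14, by 1.15 (adjusted p = 0.0047) on day 21 and by 0.97 (adjusted p = 0.0145) on day 28. The day 14 call was lost with only the 2 days in the fit (adjusted p = 0.159), with the mouse block (0.0762) and in 6 of 18 fits that left out 1 library (up to 0.233 without day 14 replicate 1). With the mouse block the day 21 call was lost too (adjusted p = 0.0892), and on day 28 the call was lost with only the 2 days in the fit (0.0695).

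Dcn encodes decorin, named for decorating collagen fibrils, which carries 1 such chain. Its day 0 libraries held 449.6, 326, 244 and 537 CPM and its day 7 libraries 359.7, 363, 97.7 and 262 CPM. On day 14 they held 399.9, 787 and 814 CPM, on day 21 409, 309, 788 and 347 CPM and on day 28 336, 149 and 319.6 CPM. Libraries of each later day overlapped those of day 0, and the spread within a day was wide, as on day 21, where replicate 3 stood above the others. Dcn was not called on any day, with log2 fold changes of -0.52 (adjusted p = 0.38), 0.78 (adjusted p = 0.32), 0.25 (adjusted p = 0.762) and -0.54 (adjusted p = 0.566). Its day 14 libraries all lay above those of day 7, a log2 fold change of 1.30 (adjusted p = 0.103) that was not called by edgeR. This difference was called by DESeq2 (adjusted p = 0.0299) and with no filter on low counts (0.000483).

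Aspn encodes asporin, which carries a run of aspartates in place of a glycosaminoglycan chain and binds collagen and TGF-beta. The gene was at 8.93, 61, 124 and 102 CPM on day 0 and at 33.8, 70.1, 153 and 83.9 CPM on day 7. It was at 76.8, 399 and 129 CPM on day 14, at 108, 94.9, 70.7 and 58.2 CPM on day 21 and at 71.8, 19.8 and 49.5 CPM on day 28. The groups overlapped throughout, with 1 low library on day 0 (replicate 1) and 1 high library on day 14 (replicate 2). No call was made, and the day 14 log2 fold change was 1.44 (SE 0.57, adjusted p = 0.165), which was called with no filter on low counts (adjusted p = 0.00199). Day 14 replicate 2 also held the most skeletal muscle marker counts of all libraries (365 CPM over 7 markers, against 4.80 and 6.52 in the other day 14 libraries), and their part in the values of that library was not tested.

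Class II: lumican, fibromodulin, PRELP and osteomodulin. Lum encodes lumican, a keratan sulphate proteoglycan that binds collagen fibrils. It stood at 182, 56.2, 107 and 133 CPM on day 0 and at 659, 918, 87.7 and 584 CPM on day 7. On day 7 replicates 1, 2 and 4 lay above every day 0 library, while replicate 3 lay among them. This gave a log2 fold change of 2.24 (SE 0.44, adjusted p = 0.000558).

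Lum reached 904, 1719 and 2076 CPM on day 14 and 1819, 1395, 2322 and 1813 CPM on day 21. All of these libraries lay far above all day 0 libraries. The log2 fold change was 3.72 (SE 0.47, adjusted p = 1.77e-05) on day 14 and 3.95 (SE 0.46, adjusted p = 6.31e-06) on day 21, when Lum was 15.4-fold higher than on day 0. No other member had a fold change of this size against day 0. On day 28 Lum had come down to 442, 620.2 and 612 CPM, still above each day 0 library, with a log2 fold change of 2.23 (SE 0.46, adjusted p = 0.0133). This call was lost with the mouse block (adjusted p = 0.237), without day 0 replicate 2 (0.0518) and without day 0 replicate 3 (0.0523). From day 7 to day 21, Lum was higher by 1.71 (SE 0.42, adjusted p = 0.0115) on the log2 scale, and with the mouse block the adjusted p was 0.0926.

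Fmod encodes fibromodulin, which shares a collagen-binding region with lumican and binds lysyl oxidase. Day 0 libraries held 87.8, 59.8, 76 and 81.4 CPM, and day 7 libraries held 12.5, 64.7, 73.8 and 38.7 CPM, which overlapped. On day 14 the values were 78.4, 642 and 175 CPM, with replicate 1 among the day 0 libraries and replicate 2 far above. Fmod had a log2 fold change of 1.96 (SE 0.55, adjusted p = 0.0311), a call that 8 of 26 alternatives lost, with an adjusted p of 0.72 and a log2 fold change of 0.73 without day 14 replicate 2. It was also lost with DESeq2 (0.0535), with the mouse block (0.317), with the replicate number as a block (0.115) and without any 1 of the 4 day 0 libraries (up to 0.0934).

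On day 21, Fmod stood at 628, 464, 159.5 and 319 CPM. All 4 libraries lay above all day 0 libraries, with a log2 fold change of 2.37 (SE 0.53, adjusted p = 0.00557), or 5.16-fold. On day 28 it was at 66.1, 16.5 and 22.4 CPM, with replicates 2 and 3 below every day 0 library and replicate 1 among them, and it was not called at a log2 fold change of -1.10 (SE 0.61, adjusted p = 0.414). Against day 7 it was higher by 2.65 (adjusted p = 0.0163) on the log2 scale on day 14 and by 3.06 (adjusted p = 0.0011) on day 21. The former call was lost with only the 2 days in the fit (adjusted p = 0.0809) and without day 14 replicate 2 (0.214).

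Prelp encodes a basic protein with a heparin-binding end, found near basement membranes. It was at 663, 711, 683 and 870.0 CPM on day 0 and at 223, 113, 67.8 and 405 CPM on day 7. No day 7 library reached the lowest of day 0. Prelp had a log2 fold change of -1.85 (SE 0.34, adjusted p = 0.000337), and the call held in all 26 alternatives. Libraries of day 14 (817, 510.0 and 595 CPM), day 21 (822, 581, 839 and 624 CPM) and day 28 (664, 559 and 706 CPM) overlapped those of day 0 and were not called. Against day 7, Prelp was higher by 1.66 (adjusted p = 0.0163) on the log2 scale on day 14, by 1.82 (adjusted p = 0.00136) on day 21 and by 1.66 (adjusted p = 0.00276) on day 28. The day 14 call was lost in 3 alternatives (adjusted p = 0.118 with only the 2 days, 0.0728 without day 7 replicate 2 and 0.14 without day 14 replicate 1) and the day 21 call with the mouse block (0.0699).

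Omd encodes osteomodulin, a keratan sulphate proteoglycan best known from bone. It held few counts, 0 to 52 per library. The values were 13.4, 33.5, 10.4 and 64.3 CPM on day 0 and 5.34, 0, 0 and 6.46 CPM on day 7, where the libraries held 3, 0, 0, 4 counts in order of replicate. Each day 7 library lay below each day 0 library. The log2 fold change was -3.24 (SE 0.77, adjusted p = 0.0035), with an adjusted p of 0.0844 with the mouse block. Counts of 0 allow up to 3 counts in such a library, counting error only, so the size of this fold is loosely set. On day 14 the values were 30.4, 31.8 and 13 CPM, on day 21 36.7, 22.2, 11.5 and 37.2 CPM and on day 28 48.8, 86 and 43.1 CPM. Each of these days overlapped day 0, and none was called against it. Against day 7, Omd was higher by 3.05 (adjusted p = 0.0156) on the log2 scale on day 21 and by 4.19 (adjusted p = 0.000881) on day 28. The day 21 call was lost with the mouse block (adjusted p = 0.144), without day 7 replicate 2 (0.0544) and without day 21 replicate 1 (0.0519).

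Class III: osteoglycin. Ogn encodes osteoglycin, also named mimecan, a small proteoglycan found in the media of normal arteries. It was at 752, 876, 698 and 917 CPM on day 0 and at 69.4, 68.3, 93.7 and 140.5 CPM on day 7. The groups were far apart, and the highest day 7 library was well under the lowest of day 0. The log2 fold change was -3.12 (SE 0.30, adjusted p = 1.16e-07), 8.69-fold lower, and the call held in all 26 alternatives. Cenpp, whose exons overlap those of Ogn on the opposite strand, held 0 to 5 counts per library, against 38 to 733 for Ogn.

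Ogn then came back over the later days. On day 14 it stood at 533, 217 and 197 CPM, with replicate 1 above the others and all below day 0, at a log2 fold change of -1.36 (SE 0.31, adjusted p = 0.00697). This call was lost with the mouse block (adjusted p = 0.067), without day 14 replicate 2 (0.0761) and without day 14 replicate 3 (0.0568). On day 21 it stood at 402, 618, 480.2 and 570.1 CPM, again with every library below every day 0 library, but the log2 fold change of -0.65 (SE 0.28, adjusted p = 0.153) was called only with the 2 days fitted alone (adjusted p = 0.0411). On day 28 it stood at 811, 820.3 and 722 CPM, within the range of day 0. Against day 7, Ogn was higher by 1.76 (adjusted p = 0.00369) on the log2 scale on day 14, by 2.47 (adjusted p = 2.68e-05) on day 21 and by 3.07 (adjusted p = 1.83e-06) on day 28. The first of these was lost with only the 2 days in the fit (adjusted p = 0.0559) and without day 14 replicate 1 (0.0758).

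Podn encodes podocan, which was first found in podocytes and binds collagen. It stood at 25.3, 26.3, 25.3 and 31.5 CPM on day 0 and at 33.8, 19.8, 1.99 and 30.7 CPM on day 7. Day 7 libraries overlapped day 0, with replicate 3 near 0. On day 14 it was at 68.8, 51.2 and 41.8 CPM, with all 3 libraries above day 0, but the log2 fold change of 0.98 (SE 0.53, adjusted p = 0.38) was not called. On day 21 it was at 82.8, 188, 44.4 and 44.2 CPM, again with all libraries above day 0, and replicate 2 stood apart. The log2 fold change was 1.72 (SE 0.50, adjusted p = 0.031), a call that 9 of 26 alternatives lost. Without day 21 replicate 2 the adjusted p was 0.246 and the log2 fold change 1.06. With the mouse block the adjusted p was 0.0832, with the replicate block 0.0571, with equal depth 0.0519 and without any 1 day 0 library or day 21 replicate 1 up to 0.0725. On day 28 it was at 24.4, 34.7 and 35.2 CPM and overlapped day 0. Against day 7, Podn was higher on day 21 by 2.03 (adjusted p = 0.0151) on the log2 scale. Without day 21 replicate 2 this call was lost (adjusted p = 0.113).

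**Figure D3:**
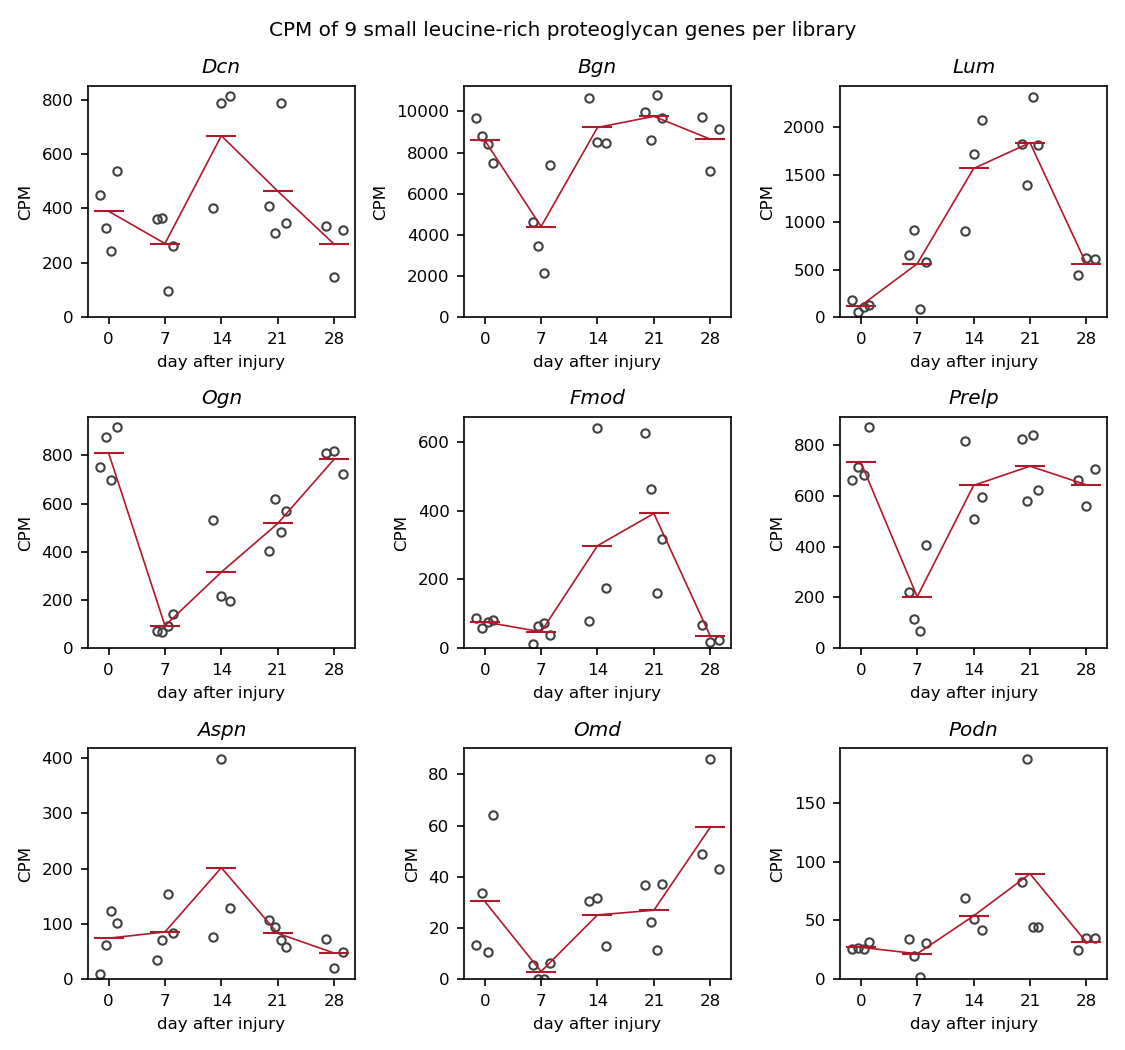
CPM of each member (vertical axes, linear from 0, each on its own scale) against the day after injury. Circles are libraries, and red bars joined by a line are means. Ogn, Prelp, Omd and Bgn dipped on day 7, Lum and Fmod peaked on day 21, and Dcn and Aspn overlapped day 0 throughout.

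Within days, single libraries moved several members at once. Day 7 replicate 3 held the lowest value of that day for Dcn, Bgn, Lum, Prelp and Podn and the highest for Fmod and Aspn. Day 7 replicate 4 held the highest value of that day for Bgn, Prelp, Ogn and Omd, and also the most contractile smooth muscle markers, whose summed level was 7478 CPM there and 1729 to 3818 CPM in the other replicates. On day 14, replicate 1 held the highest values of Bgn, Ogn and Prelp together with the highest smooth muscle sum (25117 CPM, against 8005 and 9012). Replicate 2 of that day held the highest values of Fmod and Aspn. On day 21 the highest value of Fmod, in replicate 1, came with the highest sum of 10 chondrocyte markers (1885 CPM, against 805, 766 and 959) and with 300.4 CPM of skeletal muscle markers. The part of these marker shifts in the members' values was not tested. Without day 7 replicate 3 or without day 7 replicate 4, the same number of members (5) was called on day 7.

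Counted against day 7 in place of day 0, 4 of 9 members were higher on day 14 (Bgn, Ogn, Fmod, Prelp; 1.33% of all genes), 7 of 9 on day 21 (all but Dcn and Aspn; 4.03%) and 4 of 9 on day 28 (Bgn, Ogn, Prelp, Omd; 6.4%). By edgeR and by DESeq2, 0 were lower on these days, where edgeR called 0.33%, 3.23% and 8.05% of all genes lower, and 0 had an unadjusted p under 0.05 in that direction. Comparisons with day 7 share their day 7 libraries, as those with day 0 share the day 0 libraries. The day 14 count was 8 with no filter on low counts, 0 with only the 2 days in the fit, 1 without day 14 replicate 1, and 2 without day 14 replicate 2 or without day 7 replicate 2. Over all genes these fits called 302 of 18049, 40 of 8181, 23 of 10844, 172 of 10898 and 52 of 10244 higher in that order. The main fit called 137 of 10312. With the mouse block the day 21 count was 3, and 121 of all genes were higher, against 416 in the main fit. Of the 5 members not called on day 14 against day 7, the alternatives called Dcn, Lum, Aspn and Omd, with no filter on low counts in each case. Dcn was also called by DESeq2 (adjusted p = 0.0299). Omd was also called with the replicate block (adjusted p = 0.0153), with equal depth (0.0368) and without day 7 replicate 4 (0.0363). All 9 members had an unadjusted p under 0.05 for a higher level on day 14 than on day 7. The share of all genes at that threshold is not given, so this count cannot be weighed against it.

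Over the 5 days in order (n = 4, 4, 3, 4 and 3), the summed CPM of the 9 members averaged 10856, 5688, 12988, 13888 and 11078, with SDs of 733, 2592, 539.8, 1362 and 1487. Bgn made up 79.1%, 76.6%, 70.8%, 70.3% and 77.9% of these sums on average. The other 8 together averaged 2259, 1285, 3769, 4126 and 2427 CPM, with SDs of 332, 482, 762, 478 and 108. The family was thus at its lowest mean on day 7 and its highest on day 21, with or without Bgn, which is a description with no test.

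Within the other 8, the gene with the largest mean share changed. Ogn held 36% of the counts and Prelp 32.5% on day 0, while Lum held 5.31%. On day 7 Lum held 39.2% (15.2% to 56.8% by library), Prelp 15.2% and Ogn 8.63%. Lum did not lead in day 7 replicate 3, where it held 87.7 CPM, against 153 for Aspn, 97.7 for Dcn and 93.7 for Ogn. Lum remained the leading gene on day 14 with 40.6% and on day 21 with 44.3%, against 9.39% and 12.8% for Ogn. By day 28 Ogn led again with 32.4%, ahead of Prelp with 26.4% and Lum with 23.1%. The share of Dcn was 17% on day 0, 20.5% on day 7 and 10.9% on day 28. These are means of shares per library.

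**Figure D4:**
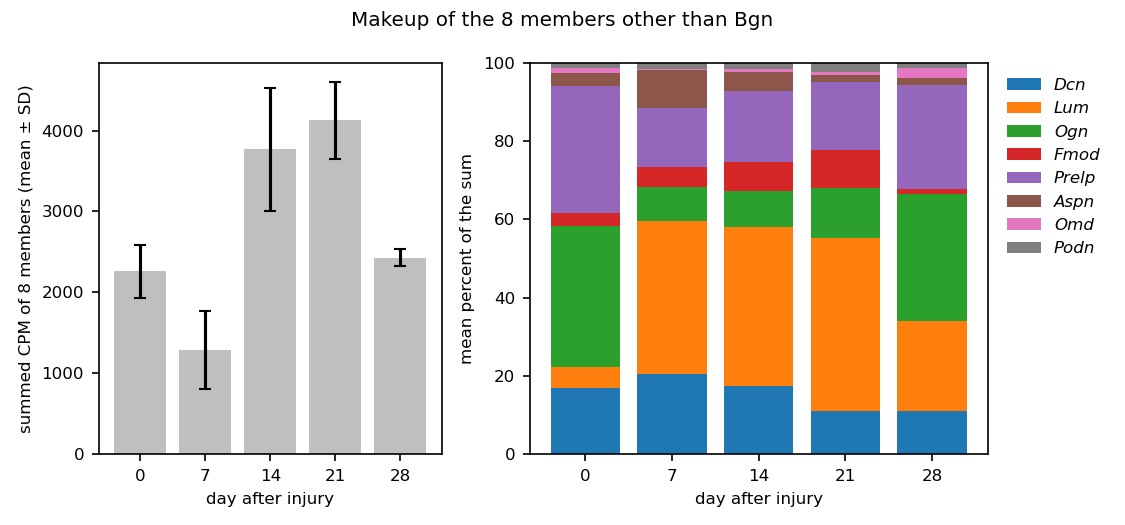
Left, summed CPM of the 8 members other than Bgn (bars, mean; whiskers, SD) by day. Right, the mean percent of that sum held by each gene. Lum grew from 5.31% on day 0 to 44.3% on day 21 while Ogn shrank from 36.0% to 12.8%.

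The counts of 3 pairs of related or neighbouring members were compared within each library, as a log2 ratio, which does not depend on the scaling between libraries. The Aspn to Ogn ratio, of a pair in the chromosome 13 cluster, was -6.28, -3.83, -2.49 and -3.16 on day 0 and -1.02, 0.04, 0.71 and -0.74 on day 7. The groups did not overlap, and the mean was 3.69 higher on day 7 (exact two-sided permutation test, p = 0.0286, the smallest that 4 against 4 libraries allow; 0.0857 after adjustment over 6 tests). The ratio of Fmod to Lum was -1.04, 0.09, -0.49 and -0.70 on day 0 and -1.53, -1.58, -3.86 and -2.50 on day 21. Here too the groups did not overlap, and the mean was 1.83 lower on day 21, a difference of -1.83 (exact two-sided permutation test, p = 0.0286, adjusted 0.0857). Lum thus led Fmod by more on day 21 than on day 0 in these libraries. Neither result passed after adjustment. Both were already at the smallest p possible, so neither could pass unless more of the 6 tests had reached it too. Nothing follows from the missing calls.

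On day 7 the Fmod to Lum ratio differed from day 0 by -2.86 (exact permutation p = 0.114, adjusted 0.229), with replicate 3 among the day 0 libraries. The Aspn to Ogn ratio on day 21 differed by 1.29 (exact permutation p = 0.2, adjusted 0.3). The ratio of Bgn to Dcn, the closest relatives, differed by -0.48 on day 7 (exact permutation p = 0.314, adjusted 0.377) and by -0.03 on day 21 (exact permutation p = 0.971, adjusted 0.971). For days 14 and 28 no call could be made, since the exact permutation p of 3 against 4 libraries cannot go below 0.0571. There the differences were -0.67 and 0.56 for Bgn to Dcn, -2.30 and -3.67 for Fmod to Lum, and 3.10 and -0.27 for Aspn to Ogn. Fmod to Lum lay below all day 0 libraries in each library of both days, which gave that smallest exact permutation p of 0.0571.

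**Figure D5:**
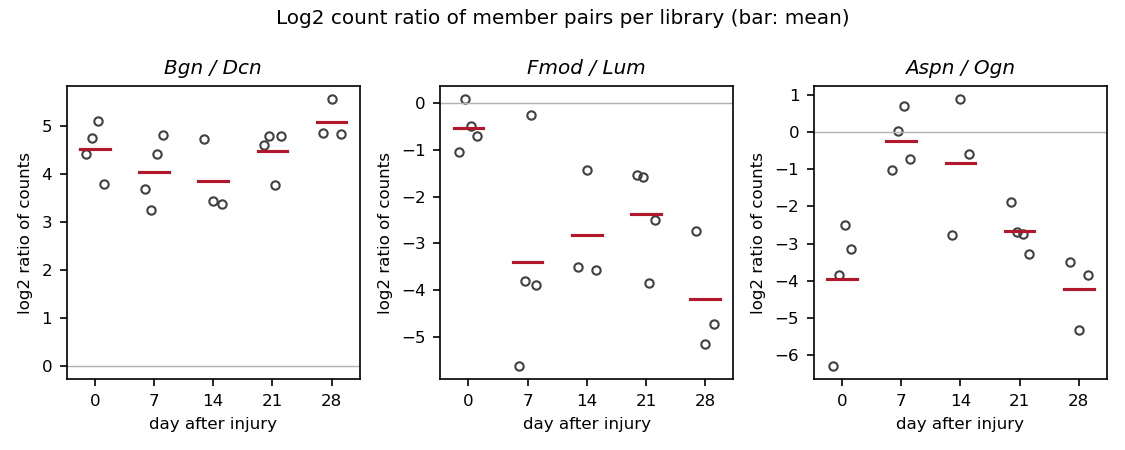
Log2 ratio of counts of 3 member pairs (vertical axes, pseudocount 0.5) against the day after injury. Circles are libraries and bars are means. Aspn to Ogn was higher in each day 7 library than in each day 0 library, Fmod to Lum was lower in each day 21 library, and Bgn to Dcn overlapped on both of these days.

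Over the 18 libraries, the members most alike in log2 CPM were Bgn and Prelp (Pearson r = 0.96). Prelp with Ogn (0.82), Ogn with Omd (0.81) and Prelp with Omd (0.81) came next, and the least alike were Ogn and Aspn (-0.26), although both lie in the same cluster. These points share libraries, days and scaling, so the values are descriptions. Among all genes tested, the 3 most like Bgn were Htra1 (0.98), Prelp and Serpine2 (0.95), and the 3 most like Prelp were Bgn, Serpine2 (0.95) and Rarres2 (0.95). For Ogn they were Ppp1r12a (0.96), Tns1 (0.95) and Cald1 (0.95), of which the latter binds actin and the first regulates myosin phosphatase.

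For Lum the 3 most alike were Sfrp2 (0.87), Ltbp2 (0.86) and Col3a1 (0.86), the chain of type III collagen. For Fmod they were Nuak2 (0.85), Col6a1 (0.82) and Col4a1 (0.82), and for Podn Gxylt2 (0.88), Fbln5 (0.82), which takes part in elastic fibre assembly, and Adamts2 (0.81), a procollagen protease. For Omd they were Nox4 (0.92), Zfp809 (0.89) and Cys1 (0.89). For Dcn they were Slc1a4 (0.86), Timp2 (0.80) and Eid1 (0.79). Aspn had the weakest matches, P3h1 (0.77), Etl4 (0.77) and Slc7a6 (0.77).

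Of 9 further small leucine-rich proteoglycans, 4 passed the filter on low counts (Ecm2, Optc, Chad and Tsku). Ecm2, the neighbour of Aspn in the chromosome 13 cluster, was at 252 ± 65.1 CPM (SD, n = 4) before injury against 22.8 ± 14.5 (SD, n = 4) on day 7. Its log2 fold change was -3.43 (adjusted p = 1.51e-06). It was still lower on day 14, at -1.33 (adjusted p = 0.0402) on the log2 scale, and on day 21, at -1.13 (adjusted p = 0.0451). Optc, which encodes opticin of class III and lies 1060 bases beyond the 3′ end of Prelp on the same strand, was at 260.3 ± 64.7 CPM (SD, n = 4) before injury against 22.2 ± 33.9 (SD, n = 4) on day 7, with -3.49 (adjusted p = 0.000563) as its log2 fold change. It was lower on day 21 too, at -2.64 (adjusted p = 0.0106), when Prelp was not called. Chad, which encodes the cartilage protein chondroadherin, had no count on day 0 or 7 and was at least 9.33-fold higher (adjusted p = 0.0291) on day 21. Its 4 day 21 libraries held 124, 0, 0 and 3 counts in order of replicate, so the mean of that day came from 1 library, and DESeq2 did not call it. Of these 4 genes, edgeR called 2 lower and 0 higher on day 7, beside 8.53% and 11.3% of all genes. It called 1 lower on day 14 (1.42% of all genes), and 2 lower and 1 higher on day 21 (2.93% and 5.92%). At an unadjusted p under 0.05, Tsku was also higher on day 7, and Chad higher and Optc lower on day 14. On day 28 both edgeR and DESeq2 called 0, with 1 gene at an unadjusted p under 0.05 by edgeR (Chad, higher). Of all genes, edgeR called 0.97% higher and 0.369% lower on that day.

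Most enzymes that build the chondroitin, dermatan and keratan sulphate chains were not called. Of 26 tested, edgeR called 3 higher on day 7, with 1 gene each on days 14 and 21, and these shares were near or below the 11.3%, 4.8% and 5.92% of all genes that were higher. DESeq2 called 3, 4 and 3 higher, where it called 1408, 633 and 839 of all 10312 genes higher. It also called 1 enzyme lower on day 7, where 974 of all genes were lower. At an unadjusted p under 0.05 edgeR had 4, 8 and 5 of the enzymes higher and 1, 0 and 0 lower. The number of enzymes thus depended on the tool and the threshold, most of all on day 14. No share of all genes at the unadjusted threshold is given, so those counts say nothing about the enzymes relative to all genes. The median log2 fold changes were 0.29, 0.45 and 0.35. On day 28 edgeR called 0, where it called 0.97% of all genes higher and 0.369% lower. DESeq2 called 1 higher, where it called 227 of all 10312 genes higher. By edgeR, 3 were higher at an unadjusted p under 0.05, and the median was 0.17. Chpf2, a chain polymerising factor, was higher on day 7 by 1.22 (adjusted p = 0.00345) on the log2 scale, and Chst11, a chondroitin 4-O-sulphotransferase, by 2.86 (adjusted p = 0.0201). Chst7 was at least 3.7-fold higher (adjusted p = 0.0056) on day 7. Chst11 was also higher on day 21, by 3.10 (adjusted p = 0.0249). Dse, the epimerase that makes dermatan sulphate, was higher on day 14 by 1.37 (adjusted p = 0.0358).

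Among other proteoglycans and link proteins, of 15 tested, 7 were higher and 1 lower on day 7, 7 higher on day 14, 6 on day 21 and 3 on day 28. Of all genes, 11.3% were higher and 8.53% lower on day 7, and 4.8%, 5.92% and 0.97% were higher later. Their median log2 fold changes were 0.91, 1.34, 1.06 and 0.01. The cell surface proteoglycan Sdc3 was at 49.6 ± 24.5 CPM (SD, n = 4) before injury against 365 ± 115 (SD, n = 4) on day 7, and its log2 fold change was 2.87 (adjusted p = 8.72e-07) on day 7 and 2.23 (adjusted p = 0.00105) on day 28. The hyaluronan receptor Cd44 was higher by 2.75 (adjusted p = 2.5e-05) and Sdc1 by 2.32 (adjusted p = 7.05e-05) on day 7. Acan, the large cartilage proteoglycan aggrecan, was higher by 3.64 (adjusted p = 0.00132) on day 14 and by 4.46 (adjusted p = 0.000101) on day 21. Cspg4, a proteoglycan of mural cells, was lower on day 7, with a log2 fold change of -1.71 (adjusted p = 0.000259).

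Most of the collagen genes listed as partners of the family rose on days 7, 14 and 21. The list also held the elastic fibre gene Eln, which was not called on day 7. Of 11 tested, 7 were higher and 2 lower on day 7, and 8 were higher on day 14 and 8 on day 21, with medians of 0.79, 1.63 and 1.56. These counts stand beside the same shares of all genes, 11.3% higher and 8.53% lower on day 7 and 4.8% and 5.92% higher on the next days. On day 28 edgeR and DESeq2 both called 0. Of all genes, edgeR called 0.97% higher and 0.369% lower there, and DESeq2 227 higher and 139 lower of 10312. By edgeR, 1 was higher at an unadjusted p under 0.05 (Col1a2), and the median was 0.23. Col1a1 was at 2549.5 ± 937 CPM (SD, n = 4) before injury against 18299.5 ± 6789.6 (SD, n = 4) on day 21, which gave 2.84 (adjusted p = 4.05e-07) on the log2 scale. Col3a1 was higher on day 21 by 1.71 (adjusted p = 6.42e-06) and Col1a2 by 2.35 (adjusted p = 4.81e-07). On day 7, Col14a1, a fibril-associated collagen, was lower, with a log2 fold change of -1.52 (adjusted p = 0.0015), and Col12a1, of the same class, was higher by 5.49 (adjusted p = 0.00033).

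Among 21 genes for signalling partners and processing enzymes, 8 were higher and 3 lower on day 7, 8 higher on day 14 and 8 higher on day 21, with medians of 0.68, 1.21 and 1.11. The background was again 11.3% and 8.53% of all genes on day 7, then 4.8% and 5.92%. On day 28 edgeR called 0, where it called 0.97% of all genes higher and 0.369% lower. DESeq2 called 3 higher, where it called 227 of all 10312 genes higher. By edgeR, 5 were higher and 1 lower at an unadjusted p under 0.05, and the median was 0.15. Higher on day 7 were Ccn4, by 4.87 (adjusted p = 4.6e-06), the membrane-bound metalloproteinase Mmp14, by 2.16 (adjusted p = 0.000199), and Cd14, by 3.36 (adjusted p = 0.000456), which with Tlr2 takes part in signalling by soluble biglycan. Kdr was at least 7.07-fold higher (adjusted p = 0.00067) on day 7. This gene is also an endothelial marker. Of 10 endothelial markers tested, 4 were higher on day 7, Kdr included, and 1 was lower. Their part in the Kdr value was not tested. Higher on day 21 were Mmp2, by 2.20 (adjusted p = 1.89e-05), and Lox, by 1.98 (adjusted p = 4.06e-05), the lysyl oxidase that cross-links collagen. Cd14 is also expressed by macrophages, whose markers were higher on the same days.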

How the data were processed

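RNA of laser-dissected carotid sections was sequenced as MACE libraries, which hold transcript 3′ ends. Reads were deduplicated by molecular identifiers, trimmed and quantified with Salmon 1.9.0 against the mm39 transcriptome by the authors, who deposited expected counts (estimates of reads per gene) rounded to whole numbers. The annotation release and the use of the strand are not given in the sources used here. A second deposited table of normalised values was not used.

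The 18 libraries were fitted together by edgeR 4.0.16 in R 4.3.3, with the day as the only term (filterByExpr by day, TMM, quasi-likelihood test, Benjamini-Hochberg over 10312 genes of 35655, threshold 0.05). Standard errors were computed from the fold change and the F statistic. Against a day whose libraries all held 3 counts or fewer, a fold is given as a lower bound, with 3 counts set for each library of that day. Intervals and bounds cover counting error only. Depth was 440675 to 878310 counts per library, which leaves Omd at 0 to 52 counts. Ratios of counts used a pseudocount of 0.5 and exact two-sided permutation tests.

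The members, the gene lists and the cell type markers were chosen with earlier results of these data known, and the list results are counts with no test of the list. Named were all members, up to 4 genes per pathway list and comparison with the smallest p among those called, and for each member the 3 genes most alike in log2 CPM (prior count 2). The fibroblast markers Ly6a and Pdgfra and the genes named at an unadjusted p were chosen after their values were seen. Shares of all genes were taken at an adjusted p only, so counts at an unadjusted p have no background beside them.

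Alternatives were DESeq2 1.42.0, other normalisation factors, no filter, only the 2 days, blocks for the replicate and mouse numbers, equal depth, and each library left out. Residuals correlated at a median of -0.01 (-0.13 to 0.20) among 33 pairs of libraries with the same replicate number. The median was 0.004 (-0.29 to 0.23) among 96 other pairs, and 0.04 for the 3 pairs with a shared mouse number in the labels. These medians showed no general pairing by replicate number, and they cannot exclude one for some pairs or genes. In the mouse block each shared number had a term and all other libraries a common one. The fit was tested on simulated data for day 7 against day 0 only, and a difference that was not called is not shown to be absent.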

Additional observations from a re-analysis of the deposited data

Results flagged for a closer look

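The Podn value of day 0 replicate 4, 31.5 CPM, stood apart from the other day 0 libraries, of which the nearest held 26.3 CPM. Its gap to that library was 0.840 of the range of the group, above the critical value of 0.829 for 4 values. It was the only one among 27 groups of 4 values tested, and chance flags about 1 in 20 groups. Without this library the log2 fold change of Podn on day 21 was 1.80 (adjusted p = 0.0572 from edgeR).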

How the results depend on the processing

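Of 1324 values of single members under the alternatives, over 51 results (36 against day 0 and the 15 called against day 7), 1246 kept their direction and their side of the threshold, 48 lost a call, 2 gained one and 28 changed sign, the last among differences that were not called either way. The 12 differences not called against day 7 had 311 further values, of which 8 were called, all on day 14. With the mouse number as a block, the members called against day 0 numbered 3 on day 7, 1 on day 14 and 0 on day 28, and those against day 7 numbered 3 on day 21. Calls over all genes were also fewer with this block. Against day 0 they numbered 609 higher and 438 lower on day 7, 182 and 17 on day 14, and 3 and 0 on day 28. Against day 7, 8 members were called on day 14 with no filter on low counts and 0, of 8 that could be tested, with only the 2 days compared. The last fit had fewer libraries and its own filter on low counts, and the cause of these changes was not tested. Leaving out each library in turn gave 1 to 3 members on day 14 and 0 to 1 on day 28 against day 0, and 1 to 5 on day 14 against day 7. The replicate number as a block turned Omd to 0.26 on day 14 and 0.0132 on day 21 and Ogn to 0.0587 on day 28 (log2 fold changes against day 0), and apart from Fmod on day 14 (adjusted p = 0.115) and Podn on day 21 (adjusted p = 0.0571) it changed no other call against day 0. The mouse block turned Prelp to 0.0244 on day 14 and 0.0292 on day 28, Omd to 0.50 on day 14 and 0.0158 on day 21, Aspn to 0.25 and Podn to -0.59 on day 28. Upper-quartile factors turned Bgn to -0.0186 on day 28. Signs also changed when 1 library was left out, with log2 fold changes of -0.27 to 0.55 for Aspn and -0.64 to 0.0167 for Podn on day 7, -0.0111 to 0.16 for Bgn and -0.58 to 0.36 for Omd on day 14, -0.16 to 0.45 for Dcn, -0.14 to 0.0643 for Prelp, -0.19 to 0.53 for Aspn and -0.46 to 0.48 for Omd on day 21, and -0.0722 to 0.14 for Bgn and -0.11 to 0.0169 for Ogn on day 28. The difference in the log2 ratio of Bgn to Dcn on day 21 then ran from -0.27 to 0.21, and that of Aspn to Ogn on day 28 from -1.06 to 0.27. Depth limits Omd, at 0 to 52 counts, and Podn, at 1 to 93 counts, the most among the members.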
